A study of Homo sapiens with 4 samples.

Results

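The JAK-STAT5 pathway was described in RNA-seq libraries labelled NB4, a human cell line of acute promyelocytic leukemia, after knockdown of CEBPG, a C/EBP family transcription factor with a leucine zipper. Its members were fixed by name: the receptor EPOR, the kinases JAK1 and JAK2, the transcription factors STAT5A and STAT5B, the target genes PIM1, CISH, SOCS1 and SOCS2, and the cytokine OSM. Of these 10 genes, 9 had values, in 20 transcript rows, among 16504 gene symbols in all. OSM had no row under its symbol in the table used here and was not analysed. The 2 control libraries carry the label of CEBPG presence and were described in the study as cells with a control short hairpin RNA (shRNA). The 2 knockdown libraries carry the label of CEBPG knockdown, and their titles hold the number 3, which may refer to shRNA number 3 against CEBPG. CEBPG hairpins were carried by a pLKO.1-puro lentivirus, and infected cells were selected with puromycin. The vector of the control hairpin is not given in the sources used here, and no label states how many hairpins the knockdown libraries hold. No label says whether libraries 1 and 2 of a group came from separate cultures, so the p-values measure the spread between these libraries, which may be technical.

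In this pathway a cytokine brings receptor chains together on the cell surface, and the JAK kinases bound to the receptor tails phosphorylate the receptors and the STAT proteins. Phosphorylated STAT5 dimers enter the nucleus and bind palindromic DNA elements near their target genes. Several of those targets, CISH and the SOCS genes, encode proteins with an SH2 domain that bind receptors or JAKs and dampen the signal, which makes the pathway a feedback loop. In blood cells STAT5 is known for its part downstream of erythropoietin and the interleukin-3 family, and for sustained activity in several leukemias. RNA levels do not report phosphorylation, so the values below concern transcript abundance alone.

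CISH is a textbook STAT5 target, and its promoter is shown because letters of the kind STAT5 binds can be read in it. The element was searched as TTCNNNGAA, which is its own reverse complement and is counted once for both strands. The search covered the 250 bases before each annotated start in the RefSeq promoter table (GRCh38.p14). Of the 9 members with values, 8 had at least 1 window, 15 windows in all, and SOCS2 was not searched. CISH was the 1 member among them with a match, and it held 4. Among 35116 windows of the same length, 6.57% held at least 1 match and 5 windows (0.014%) held 4 or more. Counted from the start, the matches begin at positions -241, -230, -129 and -112. The SOCS1 window held no such match. It is shown because SOCS1 changed most of the members, and because it carries 1 match to GAAANNGAA (searched on both strands), a core shared by interferon-response elements, which begins at position -113. That motif was found in 6.88% of the windows. A further motif, TGATGNAA, the core of the composite element for C/EBP and ATF factors, was found in 3.14% of windows and in 1 member, JAK2. None of these letter matches was tested for binding. Capitals mark TTCNNNGAA in CISH (chr3:50611775-50612024, minus strand) and GAAANNGAA in SOCS1 (chr16:11256205-11256454, minus strand), each printed 5′ to 3′ along the gene.
CISH: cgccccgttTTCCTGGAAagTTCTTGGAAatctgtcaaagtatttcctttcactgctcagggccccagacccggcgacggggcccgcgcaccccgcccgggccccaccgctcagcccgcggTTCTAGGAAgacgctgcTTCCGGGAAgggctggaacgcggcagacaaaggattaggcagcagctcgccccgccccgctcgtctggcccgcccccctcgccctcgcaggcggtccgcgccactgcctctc
SOCS1: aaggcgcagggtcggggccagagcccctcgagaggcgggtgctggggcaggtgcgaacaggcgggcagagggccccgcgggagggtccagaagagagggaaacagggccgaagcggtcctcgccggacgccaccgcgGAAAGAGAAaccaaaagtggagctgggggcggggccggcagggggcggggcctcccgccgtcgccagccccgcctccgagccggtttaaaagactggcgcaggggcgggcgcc

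CEBPG itself stood at 17.1 and 18.1 FPKM (fragments normalized to transcript length and to mapped reads) under control conditions and 6.91 and 7.96 FPKM after knockdown, which left 42.2% of its control mean. The 4 libraries held between 10875 and 10964 genes at 1 FPKM or more, and their read depth is unknown. The labelled cell type was checked against marker genes. Of 16 erythroid genes, 13 were over 10 FPKM in all 4 libraries, SLC4A1, EPB42 and AHSP were under 1 FPKM, and the list summed to 8356 and 7888 FPKM in the controls and 9345 and 8769 FPKM with knockdown. Of 8 promyelocytic granule genes, PRTN3, AZU1 and MS4A3 stayed under 1 FPKM in all libraries, and the list summed to between 133 and 148 FPKM. Of 10 myeloid surface and regulator genes 6 stayed under 1 FPKM in all libraries, ANPEP, CSF3R and CEBPA among them, and the list summed to 29.9 and 31.9 FPKM in the controls and 36.8 and 37.2 FPKM with knockdown, with medians of 0.431 and 0.471 against 0.485 and 0.332 FPKM. Other genes of these lists were expressed, such as CTSC (95.2 to 111 FPKM), LYZ (15.0 to 20.1 FPKM), SPI1 (15.2 to 17.2 FPKM), FUT4 (6.74 to 7.86 FPKM) and CD33 (4.31 and 7.57 FPKM in the controls, 9.77 and 9.41 FPKM with knockdown). Markers of the labelled cell type were thus uneven: CTSC alone held most of the granule sum and several others were near 0, while most erythroid genes were abundant. GATA1, the erythroid regulator that acts at the EPOR promoter, was at 128 and 113 FPKM in the controls and at 114 and 110 FPKM with knockdown. The part of these markers in the results below was not tested.

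The comparison asks which pathway genes differ when CEBPG is lowered. SOCS1 and SOCS2, inhibitors of the pathway, rose, and STAT5A fell, while STAT5B, JAK2, JAK1, PIM1, CISH and EPOR did not pass the test. Values were compared on the log2(FPKM + 1) scale with limma, which understates the change of low genes. All 9 genes reached a mean of 1 FPKM and entered the test. Adjusted p-values under 0.05, which is meant below by called, were reached by 3 of them (2 higher, 1 lower), against 20.9% of all 10968 tested genes (10.9% higher, 9.99% lower). The median log2 fold change of the 9 members was -0.024, beside 0.015 over all tested genes, and the median absolute change was 0.18 beside 0.15. The groups did not overlap in 6 members, where 64.8% of all tested genes did not. The threshold of the study (change of more than 1 on the log2 scale in either direction and p under 0.05, taken here as unadjusted) was passed by SOCS1 alone among the members and by 0.602% of tested genes. The study applied it to DESeq2 results, an unlike measure, so its number of genes cannot be set beside this share. In bulk RNA a change in the share of a cell type and a change in RNA per cell cannot be told apart.

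**Figure D1:**
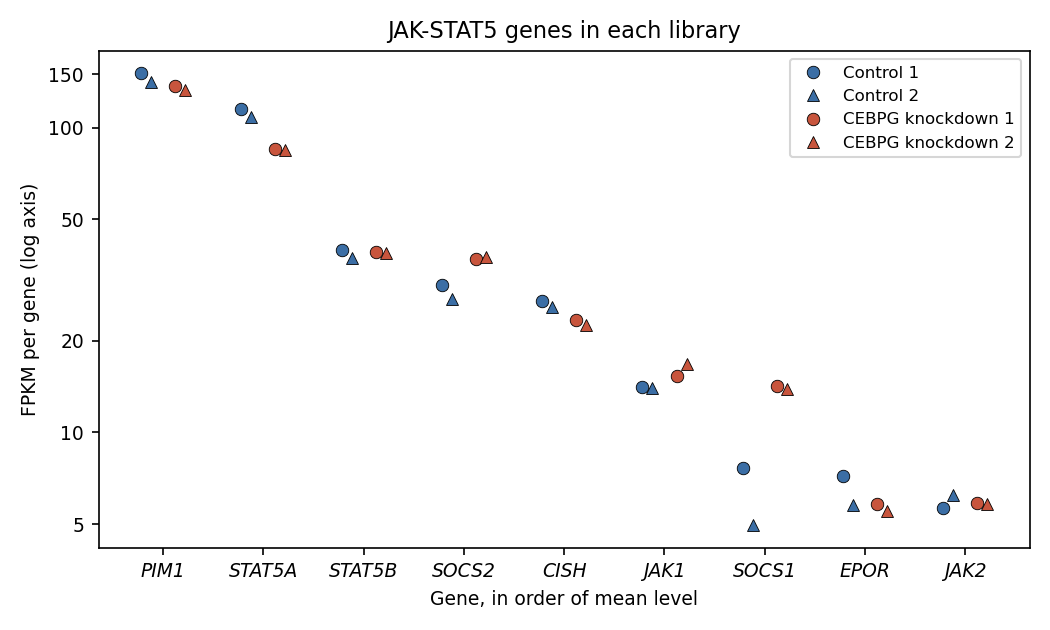
FPKM of the 9 members in each of the 4 libraries on a log axis, with genes ordered by their mean level. Knockdown points of SOCS1 and SOCS2 lie above both controls and those of STAT5A lie below both, while JAK2 and STAT5B points intermix.

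Levels differed widely along the pathway. Since FPKM is scaled to transcript length, levels can be set against each other, and the order from high to low was PIM1, STAT5A, STAT5B, SOCS2, CISH, JAK1, SOCS1, EPOR and JAK2, with means over the 4 libraries from 141 to 5.89 FPKM. PIM1 and STAT5A lay at percentiles 96.8 and 95.6 of tested genes in the controls, whereas EPOR and JAK2 lay at 38.3 and 35.8. In 4 of the neighbouring pairs (STAT5B and SOCS2, JAK1 and SOCS1, SOCS1 and EPOR, EPOR and JAK2) the ranges over the libraries overlapped, so their order is not fixed by these values.

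EPOR (chr19:11377207-11384342, minus strand) encodes the erythropoietin receptor, a homodimeric receptor that signals through JAK2. EPOR was at 7.20 and 5.76 FPKM in the controls and at 5.82 and 5.50 FPKM with knockdown. Control 1 was highest and the groups overlapped. On the log2 scale EPOR changed by -0.16 (SE 0.11; limma adjusted p = 0.31), and the 95% interval ran from -0.41 to 0.089. The value was -0.021 without control 1 and -0.30 without control 2. EPOR also divided unevenly between its transcripts. The noncoding entry NR_033663 held 35.0% of the EPOR level in control 2 and between 3.22% and 7.87% in the other libraries. The coding entry NM_000121 was at 6.86 and 3.74 FPKM in the controls and at 5.63 and 5.07 FPKM with knockdown, so control 2 was the lowest library for the receptor transcript and the second lowest for the gene after knockdown 2.

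JAK1 (chr1:64833223-65067754, minus strand) serves receptors of the interleukin-6, interleukin-2 and interferon families. It was at 14.1 and 14.0 FPKM in the controls and at 15.3 and 16.8 FPKM with knockdown. Both knockdown libraries lay above both controls by a small margin. Its log2 fold change of 0.18 had a standard error of 0.068, a 95% interval from 0.018 to 0.34 and an unadjusted p of 0.0344 (limma, adjusted p = 0.106), so JAK1 was not called. Leaving out 1 library at a time gave 0.12 (without knockdown 2) to 0.24 (without knockdown 1).

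JAK2 (chr9:4984390-5129948, plus strand) is the kinase of EPOR and of the interleukin-3 family receptors. It was at 5.66 and 6.23 FPKM in the controls and at 5.84 and 5.81 FPKM with knockdown. Both knockdown values lay between the controls. Its log2 fold change of -0.024 (SE 0.078) had an adjusted p of 0.852 in limma, and the 95% interval ran from -0.21 to 0.16. The sign rested on control 2, without which the value was 0.036.

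STAT5A and STAT5B are neighbours on chromosome 17 that encode closely related transcription factors. STAT5A (chr17:42287547-42311943, plus strand) fell. STAT5A was at 115.6 and 108 FPKM in the controls and at 85.4 and 84.7 FPKM with knockdown. Both knockdown libraries lay well below both controls, at 112 ± 5.19 (SD, n = 2) against 85.0 ± 0.495 FPKM (SD, n = 2), or 76.0% of the control mean. In limma this was a log2 fold change of -0.39 (SE 0.059) and an adjusted p of 0.00678. The size was nearly the same without knockdown 1 (-0.40) and without knockdown 2 (-0.39). A fit without a library leaves 1 library in a group, so only the size of its change is given. Over 12 alternatives the adjusted p was highest, at 0.173, for the main transcript, where the call was lost (limma). It was lowest, at 0.000243, with libraries of the same number taken as a block, although no label ties them (limma).

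STAT5B (chr17:42199176-42288633, minus strand) stayed close to its control level. STAT5B was at 39.7 and 37.4 FPKM in the controls and at 39.1 and 38.7 FPKM with knockdown, with both knockdown values between the controls. Its change of 0.013 on the log2 scale (SE 0.060) had an adjusted p of 0.895 in limma and a 95% interval from -0.13 to 0.15. Its sign turned without control 2 (-0.028) and under both rescalings of the libraries (-0.0052 and -0.0086). The share of STAT5A in the sum of STAT5A and STAT5B was 74.4% and 74.3% in the controls and 68.6% in each knockdown library. The shares did not overlap between groups, and the exact permutation test (2-sided, n = 2 per group) gave p = 0.333, the smallest that this design allows. The sum of both genes was 155 and 146 FPKM in the controls and 124.5 and 123 FPKM with knockdown. The genes resemble each other: of all 100-base stretches of the reference STAT5A transcript (GENCODE 44), 10.1% also occur in that of STAT5B, and the annotated genes overlap by 1087 bases on opposite strands. How reads in these stretches were assigned is not stated, so the division between the genes is uncertain to that extent.

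Within STAT5A the transcript NM_001288719 held most of the level, with 93.8 and 84.1 FPKM in the controls and 72.5 and 62.1 FPKM with knockdown. This entry fell below both controls in both knockdown libraries, as the gene did, with a log2 fold change of -0.40 in the fit of transcripts (limma, adjusted p = 0.173). NM_001288720 was at 11.9 and 8.64 FPKM in the controls, was listed at 0 in knockdown 1 and stood at 7.15 FPKM in knockdown 2. NM_001288718 ran from 8.15 FPKM (control 1) to 15.2 FPKM (control 2) with overlapping groups. The minor entries thus varied between libraries of 1 group far more than the gene total did.

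**Figure D2:**
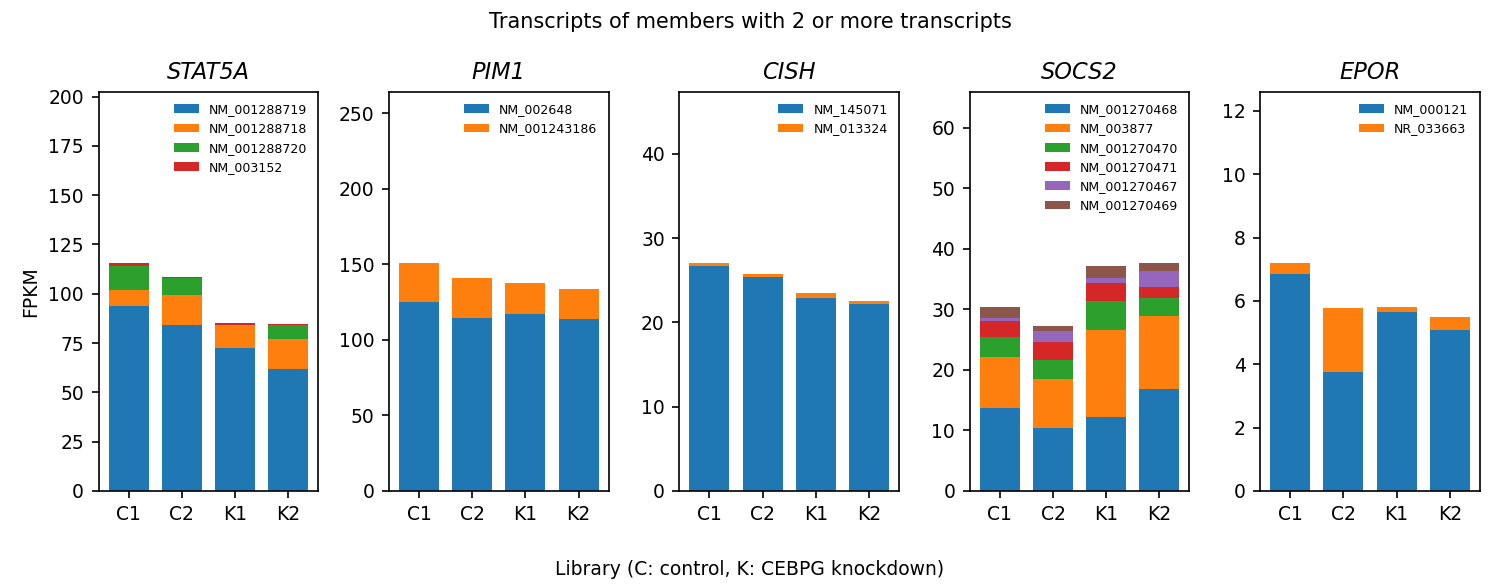
FPKM of each RefSeq transcript stacked to the gene total in the 5 members with 2 or more transcripts (C1 and C2: controls, K1 and K2: knockdown). The STAT5A total drops and the SOCS2 total rises in both knockdown libraries, and control 2 shows the large noncoding share of EPOR.

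The target genes did not move as a block. PIM1 (chr6:37170152-37175428, plus strand), a serine/threonine kinase that promotes survival and is induced by STAT5, was at 151 and 141 FPKM in the controls and at 137 and 133 FPKM with knockdown. The groups did not overlap, yet the gap between control 2 and knockdown 1 was smaller than the distance between the controls. PIM1 changed by -0.11 on the log2 scale (SE 0.061; limma adjusted p = 0.249), with a 95% interval from -0.25 to 0.037. The adjusted p was 0.0469 when the columns were scaled to one sum and ranged up to 0.691 over the alternatives (limma), and the value was -0.058 without control 1. The PIM1 transcript NM_001243186, at 25.8 and 26.7 FPKM in the controls and at 20.3 and 19.97 FPKM with knockdown, changed by -0.37 (limma, adjusted p = 0.101), while the main entry NM_002648 overlapped between groups and changed by -0.053 (limma, adjusted p = 0.691).

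CISH (chr3:50606489-50611774, minus strand), the gene with 4 TTCNNNGAA matches in its promoter window, encodes an SH2 protein that competes for STAT5 docking sites on receptors. CISH was at 27.1 and 25.7 FPKM in the controls and at 23.4 and 22.6 FPKM with knockdown. Both knockdown libraries lay below both controls, and 87.1% of the control mean remained. Its log2 fold change of -0.19 had a standard error of 0.062, a 95% interval from -0.34 to -0.044 and an unadjusted p of 0.0179 (limma, adjusted p = 0.0701), which missed the threshold. CISH was called in 3 of 12 alternatives, among them median-ratio scaling (-0.21, adjusted p = 0.0312) and columns scaled to one sum (-0.21, 0.0293), and its adjusted p was 0.208 in the fit of transcripts (limma).

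SOCS1 (chr16:11254417-11256204, minus strand) encodes an inhibitor that binds JAK kinases directly and blocks their activity. SOCS1 rose. It was at 7.62 and 4.95 FPKM in the controls and at 14.2 and 13.9 FPKM with knockdown. The controls differed from each other by more than the knockdown libraries did, and both lay far below them, at 6.29 ± 1.89 (SD, n = 2) against 14.0 ± 0.175 FPKM (SD, n = 2). The knockdown mean was 223% of the control mean. In limma SOCS1 had a log2 fold change of 1.07 (SE 0.16) and an adjusted p of 0.00638. The fold ranged from 0.80 without control 2 to 1.34 without control 1. The call was lost with no filter on low values (limma adjusted p = 0.0602) and in the fit of transcripts (0.116). The lowest adjusted p of the alternatives, 7.16e-05, came with the library number as a block (limma).

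SOCS2 (chr12:93569814-93583487, plus strand), an inhibitor best known for growth hormone receptor signalling, rose by less. SOCS2 was at 30.4 and 27.3 FPKM in the controls and at 37.1 and 37.6 FPKM with knockdown. Both knockdown libraries lay above both controls, at 37.4 ± 0.385 (SD, n = 2) against 28.8 ± 2.17 FPKM (SD, n = 2). This log2 fold change of 0.37 (SE 0.069) had an adjusted p of 0.0141 in limma. The value was 0.38 without knockdown 1 and 0.35 without knockdown 2. The call was lost with no filter (limma adjusted p = 0.0578) and for the transcript with the highest mean (0.24, 0.57). The lowest adjusted p of the alternatives, 0.00175, came with the library number as a block (limma).

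Of the 6 SOCS2 transcripts, 1 had groups that did not overlap. This entry, NM_003877, was at 8.36 and 8.15 FPKM in the controls and at 14.3 and 12.1 FPKM with knockdown, a log2 fold change of 0.62 (limma, adjusted p = 0.106). The entry with the highest mean, NM_001270468, was at 13.7 and 10.4 FPKM in the controls and at 12.2 and 16.8 FPKM with knockdown, so its groups overlapped, and knockdown 2 was its highest library. Summed over the 3 inhibitors SOCS1, SOCS2 and CISH the level was 65.0 and 58.0 FPKM in the controls and 74.7 and 74.1 FPKM with knockdown. SOCS1 made up 11.7% and 8.54% of that sum in the controls and 19.0% and 18.8% with knockdown (exact permutation test, 2-sided, p = 0.333, the smallest possible).

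**Figure D3:**
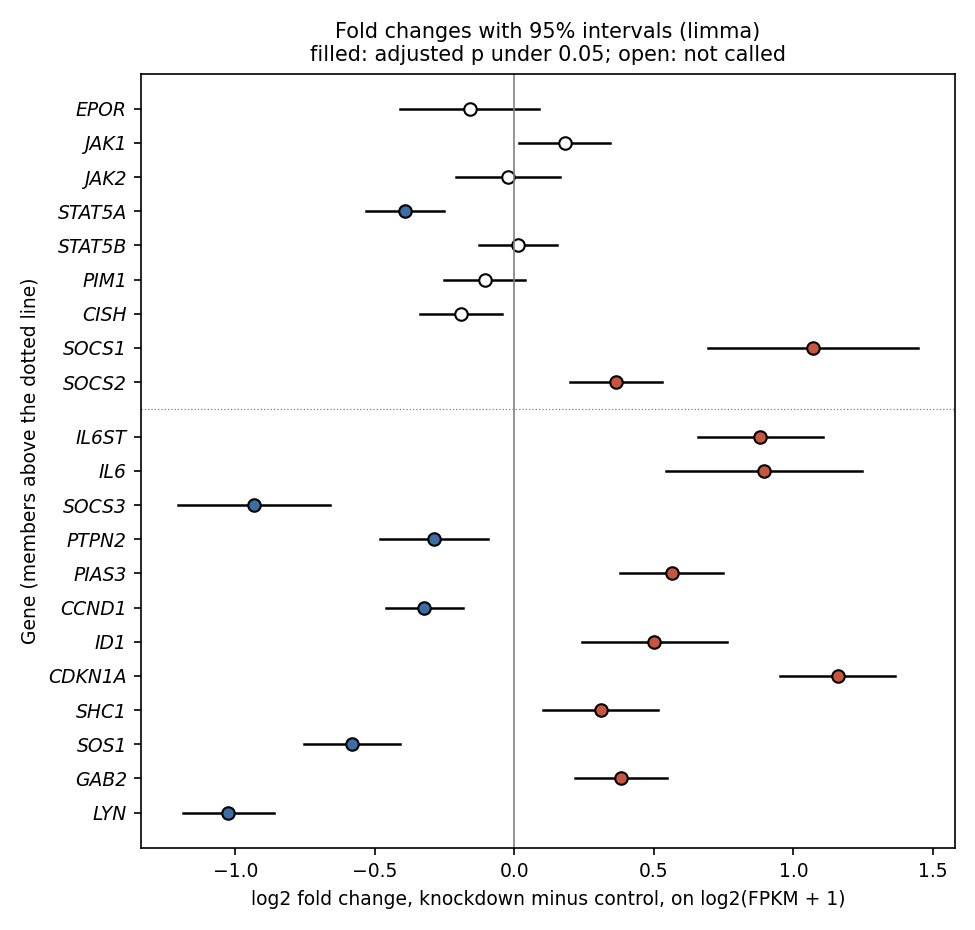
Log2 fold changes with 95% intervals (limma) for the 9 members, above the dotted line, and for the genes of the pathway lists named by the rule, below it. SOCS1 (1.07) and SOCS2 (0.37) are filled on the right and STAT5A (-0.39) on the left, while the intervals of JAK2, STAT5B, PIM1 and EPOR include 0.

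Other genes of the pathway were read from lists written from general knowledge, with earlier results of these data known. Each list count below stands against the 20.9% of all tested genes called (10.9% higher, 9.99% lower). Of 7 other JAK and STAT genes, 6 had values and 5 were tested, with 0 called at an adjusted p under 0.05 and 1 (STAT2) at an unadjusted p under 0.05 (limma), a median log2 fold change of 0.082 and a range from -0.043 to 0.27. The median was 0.15 without control 1, 0.046 without control 2 and 0.050 without knockdown 1. Of 32 cytokine receptor chains, 23 had values and 12 were tested, with 1 called higher, 0 lower and a median of 0.060. Up to 2 chains were called lower after rescaling the libraries, and the median was 0.023 without control 1, 0.11 without control 2 and -0.0017 with no filter on low values. The chain called higher was IL6ST (gp130), the signalling subunit shared by the interleukin-6 and oncostatin M receptors, which work through JAK1. IL6ST was at 6.15 and 6.74 FPKM in the controls and at 11.7 and 13.8 FPKM with knockdown. Both knockdown libraries were far above both controls, and IL6ST rose by 0.88 on the log2 scale (SE 0.094; limma adjusted p = 0.00236).

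Some receptor chains that pair JAK2 with STAT5 were scarce. CSF2RB and IL3RA, chains of the interleukin-3 family receptors, stayed below 0.13 FPKM in all 4 libraries. They are named after their values were seen. Of 20 cytokine ligands, 12 had values and 2 were tested. IL6, the ligand whose receptor holds IL6ST, was called higher, at 0.826 and 1.42 FPKM in the controls and 2.85 and 2.96 FPKM with knockdown (0.89, limma adjusted p = 0.00918). This low gene was not called with no filter on low values (limma adjusted p = 0.06) or in the fit of transcripts (0.145). The lowest adjusted p of the alternatives, 0.000715, came with the library number as a block (limma).

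Of 17 negative regulators, 15 were tested, with 1 called higher, 2 lower and a median of 0.084. With no filter on low values 1 was called lower, and in the fit of transcripts 0 were called in either direction. SOCS3, the inhibitor that acts on IL6ST and a member of the same family as SOCS1, fell. SOCS3 was at 7.87 and 6.31 FPKM in the controls and at 3.45 and 3.003 FPKM with knockdown, so both knockdown libraries lay below both controls. The SOCS3 log2 fold change of -0.93 (SE 0.11; limma adjusted p = 0.0037) stood beside 1.07 for SOCS1 and 0.37 for SOCS2. SOCS4 to SOCS7 were tested and not called, with log2 fold changes from 0.074 to 0.17. PIAS3, a SUMO ligase that inhibits STAT3, rose from 6.18 and 5.50 FPKM to 9.07 and 9.13 FPKM (0.56, limma adjusted p = 0.00531). The phosphatase gene PTPN2, which acts on JAK1 and STAT proteins, changed by -0.29 (limma, adjusted p = 0.0476). That call was lost with no filter, with no trend and in the fit of transcripts. The value of PTPN2 was -0.20 without control 1, -0.23 without knockdown 1 and -0.35 without knockdown 2.

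Further genes reported elsewhere as STAT5 targets were called in both directions. Of 17, 15 were tested, with 4 called higher, 3 lower and a median of -0.021, which turned to 0.062 with no filter, 0.14 with a mean of at least 5 FPKM, 0.049 without control 1 and 0.0038 without knockdown 2. The cell cycle inhibitor CDKN1A rose from 6.97 and 5.89 FPKM to 15.3 and 15.7 FPKM (1.16, limma adjusted p = 0.000959). ID1, an inhibitor of basic helix-loop-helix factors, rose from 42.2 and 33.5 FPKM to 56.4 and 51.1 FPKM (0.50, limma adjusted p = 0.0223). Both CDKN1A and ID1 lay above their controls in both knockdown libraries. Besides SOCS3, which stands on this list too, CCND1 (cyclin D1) fell from 31.7 and 32.7 FPKM to 25.3 and 25.8 FPKM (-0.32, limma adjusted p = 0.0122). The other 3 called genes, named after their values were seen, were the survival gene BCL2L1 (0.30, limma adjusted p = 0.0196), the PIM1 relative PIM2 (0.28, 0.021) and MYC (-0.31, 0.0209). PIM2 was at 82.9 and 79.2 FPKM in the controls and at 101 and 95.9 FPKM with knockdown, on the other side of its controls than PIM1. The difference between PIM1 and PIM2 was not tested. With no filter on low values the calls on this list shrank to 1 higher (CDKN1A) and 2 lower (SOCS3 and CCND1). With transcripts in place of genes they shrank to 0 in either direction. The value of PIM2 was 0.25 without control 2.

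Adaptors and kinases that sit next to cytokine receptors held the lowest value of these lists. Of 10, 9 were tested, with 2 called higher, 2 lower and a median of 0.027, which turned to -0.022 with no filter, -0.0035 without control 1, -0.030 without control 2 and -0.014 without knockdown 2. LYN, a SRC family kinase that associates with EPOR, fell from 30.0 and 29.8 FPKM to 13.5 and 14.9 FPKM, or by -1.02 on the log2 scale (SE 0.068; limma adjusted p = 0.000781). SOS1, an exchange factor that links receptors to RAS, fell from 8.90 and 8.92 FPKM to 5.43 and 5.83 FPKM (-0.58, limma adjusted p = 0.00389). LYN and SOS1 were below both controls in both knockdown libraries, though not called in the fit of transcripts (limma adjusted p = 0.106 and 0.0952). When 1 library was left out, LYN stayed between -1.09 and -0.96 and SOS1 between -0.62 and -0.54. GAB2 changed by 0.38 (limma, adjusted p = 0.0128) and SHC1 by 0.31 (0.0472), both scaffold proteins of growth factor signalling. GAB2 was not called with no filter (limma adjusted p = 0.0514) or for transcripts (0.125), and its value was 0.32 without knockdown 2. SHC1 was not called with no filter (limma adjusted p = 0.132), with no trend (0.0782) or for transcripts (0.534). The value of SHC1 was 0.21 without control 2, 0.23 without knockdown 1 and 0.38 without knockdown 2.

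**Figure D4:**
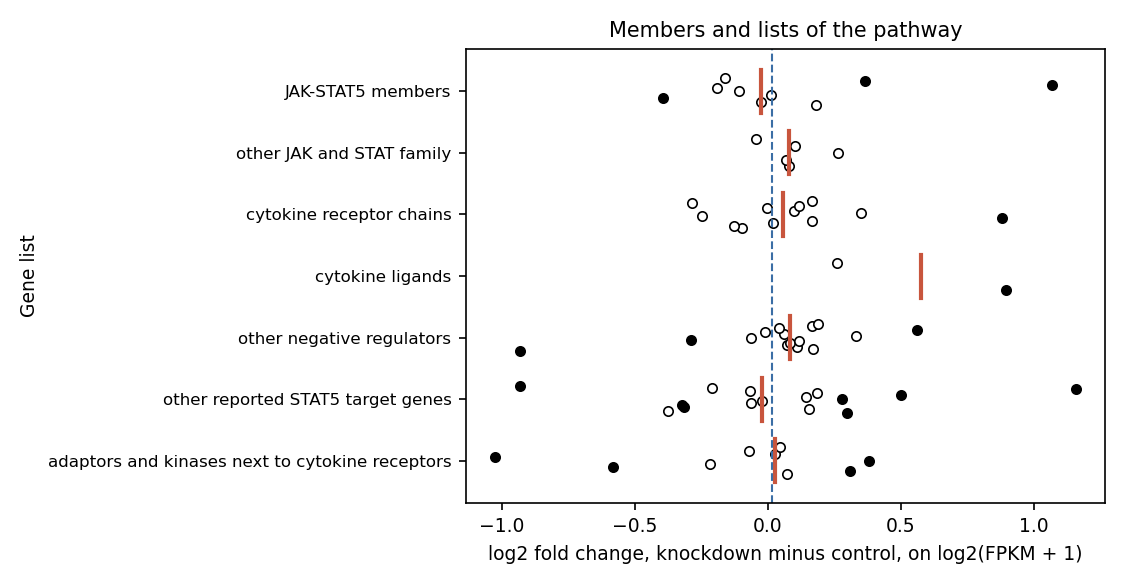
Log2 fold changes of the tested genes of the members and of 6 pathway lists, with filled points for an adjusted p under 0.05, a red bar at each list median and a dashed line at the median of all tested genes (0.015). Called genes stand on both sides of 0 among the members, the negative regulators, the reported targets and the adaptors.

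How far each member's value moved was examined by refitting under 12 alternatives. SOCS1 stayed between 0.80 and 1.34 and STAT5A between -0.44 and -0.34, so both kept their direction throughout. SOCS2 stayed between 0.24 and 0.44, JAK1 between 0.12 and 0.24, CISH between -0.23 and -0.16 and PIM1 between -0.15 and -0.052. JAK2, STAT5B and EPOR changed sign in at least 1 alternative. Fits that left out a library had 1 library in a group, so the calls they made are not given.

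**Figure D5:**
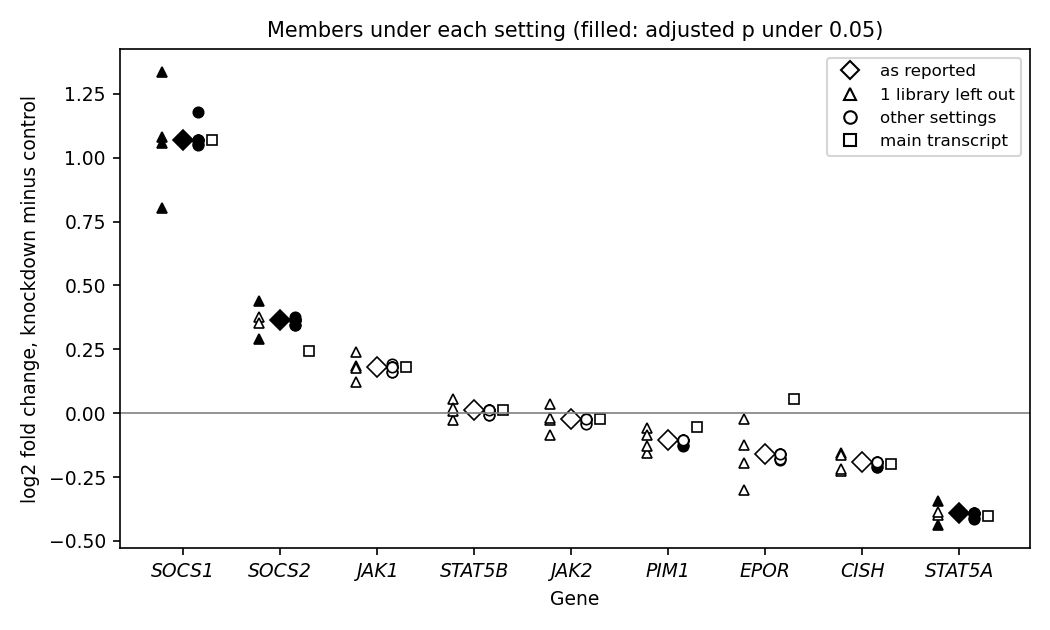
Log2 fold change of each member as reported (diamonds), with 1 library left out (triangles), under other settings (circles) and for its transcript with the highest mean (squares), filled where the adjusted p was under 0.05. Triangles come from fits with 1 library in a group, so their filling is not read here. SOCS1 lies apart from the other members in every setting, from 0.80 to 1.34, and JAK2 and STAT5B straddle 0.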

How the data were processed

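RNA-seq was measured in 4 libraries, 2 control and 2 CEBPG knockdown, grouped by their titles. Total RNA was extracted with Trizol and libraries were made with an Illumina TruSeq kit. The submitters' processing notes name HISAT2 2.0.5 and hg38. The quantifier and the annotation release are not given in the sources used here. The authors deposited FPKM values per RefSeq transcript, with no counts, so depth is unknown and no counting interval was possible. Of 29265 entries, 183 had no value and 164 had no symbol (0.25% of FPKM), and the other 28918 were summed to 16504 symbols. Genes whose mean reached 1 FPKM were transformed to log2(FPKM + 1) and fitted in limma 3.58.1 (R 4.3.3), with variances moderated along a trend on the mean. Tests were 2-sided, and p-values were adjusted by Benjamini-Hochberg over all tested genes. The script was tested on simulated data. The count test of the study could not be run on FPKM. Alternatives were a pseudocount of 0.1, no filter, a mean of at least 5 FPKM, the replicate block, 2 scalings, no trend, each library left out, and transcripts in place of genes. Members and lists were chosen with earlier results of these data known. Named were all members, CEBPG and, per list, at most 4 called genes with the largest absolute change. Gene positions are from GENCODE 44 (GRCh38), promoters from RefSeq (GRCh38.p14).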

Additional observations from a re-analysis of the deposited data

How the results depend on the processing

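Read depth is unknown, which limits what can be said of genes near 1 FPKM. The number of member genes called (3, of them 2 higher and 1 lower) was 1 with no filter on low values (0 higher), 5 with columns scaled to one sum (3 lower) and 0 with transcripts in place of genes (0 higher, 0 lower; 25 of 15795 transcripts called and 3213 at an unadjusted p under 0.05, limma). Fits without a library leave 1 library in a group, so their calls are not counted here. The number called lower was 2 after median-ratio scaling. The number of all genes called (2288) was 882 with no filter and 25 for transcripts, and it ranged from 825 to 1925 when a library was left out, lowest without knockdown 1. Among single members, the values that turned sign were JAK2 without control 2 (0.0362, from -0.084 without control 1), STAT5B without control 2 (-0.0279, from 0.0539 without control 1), after median-ratio scaling (-0.0052) and with columns scaled to one sum (-0.0086), and EPOR for its main transcript (0.0554). None of these was called in any setting, and the cause was not tested. Of 108 refits of single members 90 kept direction and side of the threshold, 9 lost a call and 4 gained one. Of those of CEBPG and the called list genes 147 kept both and 44 lost the call, and 0 of the list genes were called for transcripts. These counts of refits include the fits that left 1 library in a group, whose calls rest on little spread. The medians of the members (0.013 for transcripts) and of the receptor, target and adaptor lists lay near 0 and also turned sign in at least 1 setting. No label ties libraries of the same number to each other, and their deviations from the group means had a correlation of 0.101 across genes. With the number as a block 3440 genes were called, 2 members were called lower (STAT5A and CISH, adjusted p = 0.0356 in limma) and no member lost its call. The block also gave 1 call among the other JAK and STAT genes (STAT2, higher) and 2 lower among the receptor chains. It gave 2 higher among the negative regulators and 6 higher among the reported targets.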

Other observations

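Several ligands of the pathway lay under the filter of 1 FPKM and were not tested. They are named after their values were seen. CSF2, the ligand of the granulocyte-macrophage receptor, was listed at 0 in control 1, at 0.0615 FPKM in control 2 and at 0.264 and 0.623 FPKM with knockdown. LIF, a ligand of receptors that hold IL6ST, was at 0.136 and 0.0808 FPKM in the controls and at 0.308 and 0.363 FPKM with knockdown. In CSF2 and LIF the knockdown libraries lay above both controls. IL7, the ligand of the interleukin-7 receptor, went the other way, at 0.0215 and 0.0661 FPKM in the controls and listed at 0 in both knockdown libraries. Of the 10 untested ligands with values, 6 lay above both controls in both knockdown libraries, 2 lay below them and 2 overlapped. Among tested genes 64.8% did not overlap in either direction, but those passed the filter. The share among genes under the filter was not counted, so these ligands have no like background. EPO, the ligand of EPOR, was listed at 0 in control 1 and reached 0.1001 FPKM at most (knockdown 2).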
